A study of Mus musculus with 8 samples.

Results

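The genes described here handle iron in the cell: the ferritin subunits Fth1 and Ftl1, the ferritin receptor Ncoa4, the importers Tfrc and Slc11a2, the exporter Slc40a1, and the regulators Aco1 and Ireb2. They are 8 of the 21761 genes in the deposited counts, each matched by its exact symbol. The RNA was pulled down together with ribosomes by TRAP, a ribosome affinity method, from dopaminergic neurons of the midbrain of C57BL/6 mice. The values therefore describe the RNA recovered in that pull-down. It also held the nuclear RNA Malat1 and markers of glia, given below, so a level may include RNA from other cells or RNA not bound to ribosomes. In the MPTP group, 4 libraries came from mice that received MPTP-HCl by intraperitoneal injection at 30 mg/kg (free base), once daily for 5 days. The saline group has 4 libraries from mice injected with saline on the same schedule. In both groups the tissue was taken 4 days after the last injection. MPTP is a neurotoxin whose brain metabolite enters dopaminergic neurons and blocks complex I of the respiratory chain. The labels do not name the ribosome tag, the promoter that drives it, the age or sex of the mice, or whether animals were pooled. They number the replicates without saying that each is a separate animal, so the spread behind each p-value may be technical.

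Cells take up transferrin-bound iron through the transferrin receptor, carry it across the endosomal membrane with the transporter encoded by Slc11a2, store it in ferritin shells of heavy and light subunits, and release it through ferroportin. Iron regulatory proteins 1 and 2, encoded by Aco1 and Ireb2, bind a hairpin called the iron-responsive element (IRE) when iron is low. Binding in a 5′ UTR holds back translation, and binding in the 3′ UTR of the transferrin receptor transcript protects it from decay. The substantia nigra is rich in iron, and iron catalyses oxidative reactions, which is why these genes are often studied in models of dopaminergic neuron loss.

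The IREs are shown because they are the elements that iron regulatory proteins are known to bind in ferritin, ferroportin and transferrin receptor RNA. The pattern searched was the letter C, 5 bases of upper stem, the loop CAGTGN with N being A, C or T, and 5 bases that pair with the upper stem (G-T pairs allowed), with at least 4 of the 6 outermost base pairs of the lower stem formed. The search covered UTRs of GENCODE vM21 transcripts on GRCm38, on the transcript strand. It matched 16 of 20502 protein-coding genes (0.078%), 4 of them among the 8 iron genes. Capitals mark the loop, and each sequence is the 29-base transcript strand written 5′ to 3′ in DNA letters.
Fth1, 5′ UTR, chr19:9982732-9982760, plus strand: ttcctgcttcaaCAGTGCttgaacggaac
Ftl1, 5′ UTR, chr7:45459779-45459807, minus strand: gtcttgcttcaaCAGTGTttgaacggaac
Slc40a1, 5′ UTR, chr1:45925465-45925493, minus strand: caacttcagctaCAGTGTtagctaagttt
Tfrc, 3′ UTR, chr16:32631219-32631247, plus strand: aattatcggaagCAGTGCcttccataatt
Tfrc, 3′ UTR, chr16:32631598-32631626, plus strand: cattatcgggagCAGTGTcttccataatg
Tfrc, 3′ UTR, chr16:32631663-32631691, plus strand: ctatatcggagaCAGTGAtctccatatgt
Tfrc, 3′ UTR, chr16:32631710-32631738, plus strand: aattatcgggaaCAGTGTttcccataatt

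The elements of the 2 ferritin genes are identical at 26 of 29 bases. The first and second Tfrc elements share 25 of 29 bases, and the Fth1 element shares between 9 and 11 bases with the Tfrc elements. The ferroportin gene Slc40a1 shares 13 of 29 bases with each ferritin element. The search found no match in Slc11a2, Aco1, Ireb2 or Ncoa4. It also found none in Epas1, Cdc42bpa, Cdc14a, App or Pfn2, which are on the list of other IRE transcripts described below. Slc11a2 has isoforms with and without an IRE. The pattern therefore misses known elements, and a gene without a match may still hold one. A match is a description of the letters and not of protein binding.

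Library totals ranged from 54192354 to 78892061 counts, and 15999 genes were tested. Values are CPM, the usual per-library abundance unit, with library sizes scaled by TMM. With edgeR's quasi-likelihood test and an adjusted p threshold of 0.05 over all genes, 12 genes were called higher in MPTP (0.075% of those tested) and 5 lower (0.0313%), 0.106% in all. The library saline 3 stood apart from the other saline libraries. Its non-neuronal marker score, the mean log2 CPM of astrocyte, oligodendrocyte, microglia and endothelial markers, was 3.09, against 2.11 to 2.49 in the other saline libraries and 2.65 to 2.97 in MPTP. Its level of Th (tyrosine hydroxylase, which makes the dopamine precursor) was 1847 CPM, against 2744 to 3023 in the other saline libraries and 1992 to 2708 in MPTP. The nuclear RNA Malat1 stood at 2194 CPM in saline 3, at 475 to 945 in the other saline libraries and at 1049 to 1745 in MPTP. Member results that leaving out saline 3 moved across the threshold, across 0 or by over 1.5 times are given with and without it. In bulk RNA, fewer cells of a type and less RNA per cell cannot be told apart.

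None of the 8 iron genes passed the threshold, with 4 fold changes above 0 and 4 below. DESeq2 also called none of them, with 25 genes higher (0.156%) and 28 lower (0.175%), 0.332% in all. At an unadjusted p under 0.05 edgeR had 2 of the 8, Fth1 and Ftl1, both higher, against 8.78% of all genes tested in either direction and 4.28% higher. The groups did not overlap for 1 of the 8, Ftl1, which was higher in MPTP, against 4.19% of all genes in either direction (2.04% higher and 2.14% lower). The median log2 fold change was 0.0078 for the 8 genes and 0.00056 for all genes tested.

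**Figure D1:**
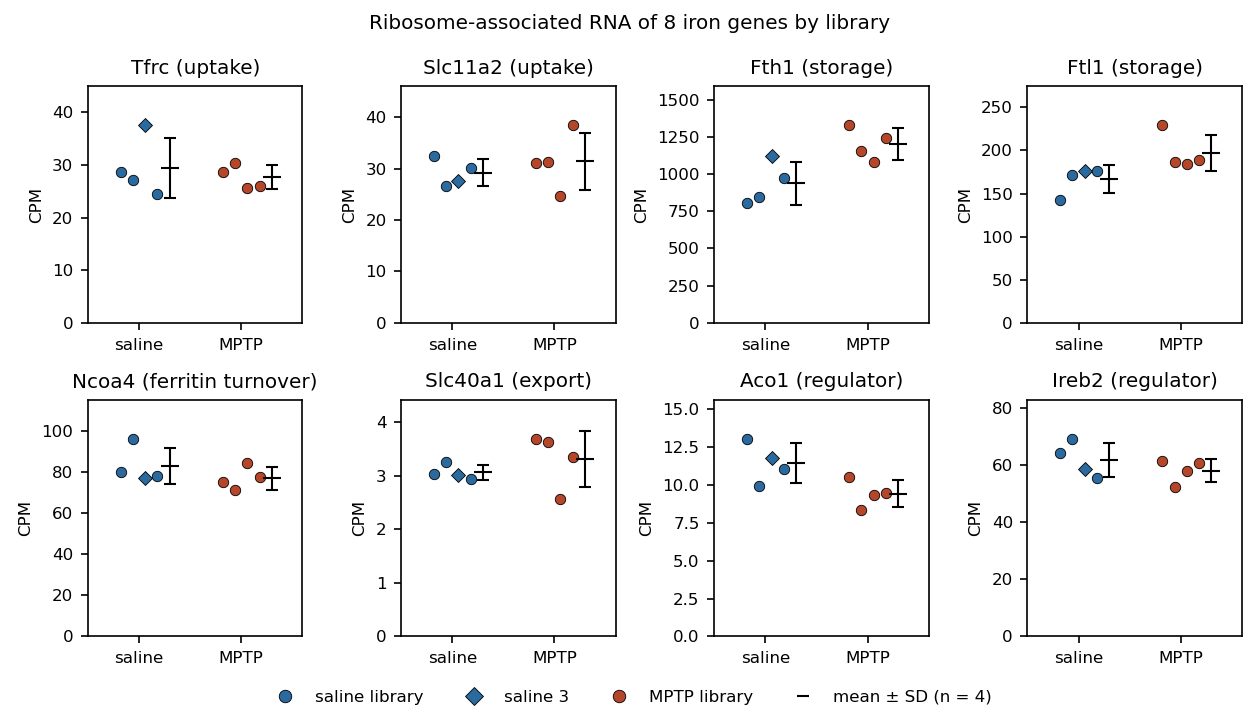
Each panel plots the TMM-scaled CPM of 1 gene (y axis, from 0) in the 4 MPTP and 4 saline libraries, with a bar at the group mean, an error bar of 1 SD, and a diamond for saline 3. The MPTP and saline points separate for Ftl1, and for Fth1 they separate except for saline 3 at 1123 CPM, while the points of the other 6 genes overlap.

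The most abundant member was Fth1, the ferritin heavy chain, which carries the ferroxidase site that oxidises iron for storage. It measured 1326, 1153, 1081 and 1243 CPM in MPTP replicates 1 to 4 and 804, 848, 1123 and 971 CPM in saline replicates 1 to 4. All 4 MPTP libraries lay above 3 of the saline libraries, and saline 3 lay above MPTP 3. The mean was 1201 ± 107 CPM (SD, n = 4) with MPTP and 937 ± 143 CPM (SD, n = 4) with saline. The log2 fold change was 0.36 (SE 0.11, 95% interval 0.13 to 0.59), or 1.28-fold (1.09 to 1.5). Its edgeR p was 0.00453 before adjustment and 0.415 after, so the difference did not pass. Between 51047 and 108741 reads per library were counted for Fth1, so counting error is small beside the spread between libraries.

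Saline 3 decided whether Fth1 passed. Without that library the saline mean was 875 ± 86.4 CPM (SD, n = 3), the log2 fold change was 0.46 (SE 0.091) and edgeR's adjusted p was 0.0218. Fth1 was the 1 member called in that fit, which called 138 of 16180 genes higher (0.853%) and 159 lower (0.983%), 1.84% in all. The groups of Fth1 values then no longer overlapped, which follows from leaving out the only saline library that lay above an MPTP library. The share of all genes that did not overlap without saline 3 is not given here. When the fit without saline 3 also held the non-neuronal score as a covariate, 11 genes were called higher (0.068%) and 19 lower (0.117%), 0.185% in all, and no member among them. For Fth1 the log2 fold change was then 0.53 (SE 0.175, edgeR adjusted p 0.259), and with the covariate and all 8 libraries it was 0.28 (adjusted p 0.701). In the fit without saline 3, score and treatment can hardly be told apart. The scores of its saline libraries were 2.11 to 2.49, all below the MPTP scores of 2.65 to 2.97.

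Ftl1 encodes the ferritin light chain, which helps nucleate the iron core. Its levels were 229, 186, 184 and 189 CPM with MPTP and 142, 172, 176 and 176 CPM with saline. The lowest MPTP library lay above the highest saline library, and MPTP 1 and saline 1 were the extremes of the 8. The means were 197 ± 21.4 and 166 ± 16.4 CPM (SD, n = 4 each). The log2 fold change was 0.24 (SE 0.096, 95% interval 0.040 to 0.45), or 1.18-fold, with an unadjusted edgeR p of 0.0220 and an adjusted p of 0.492. It was 0.27 without saline 3, with an adjusted p of 0.169. Without MPTP 1 it was 0.16, with an unadjusted edgeR p of 0.108. Without saline 1 it was 0.18, with an unadjusted edgeR p of 0.0799. The unadjusted p under 0.05 thus rested on both of these libraries.

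Ftl1 counts cannot be assigned to Ftl1 alone. Of the 869 windows of 100 bases (the read length) in its transcript, 683 (78.6%) also occur in a transcript of another gene, 515 of them in the processed copy Ftl1-ps1. The separate entry Ftl2 held 87.8% to 91.3% as many counts as Ftl1 in every library, and its log2 fold change was 0.24 with an adjusted p of 0.506. The 2 entries are therefore not independent measurements. For Fth1, 0.964% of windows were shared.

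**Figure D2:**
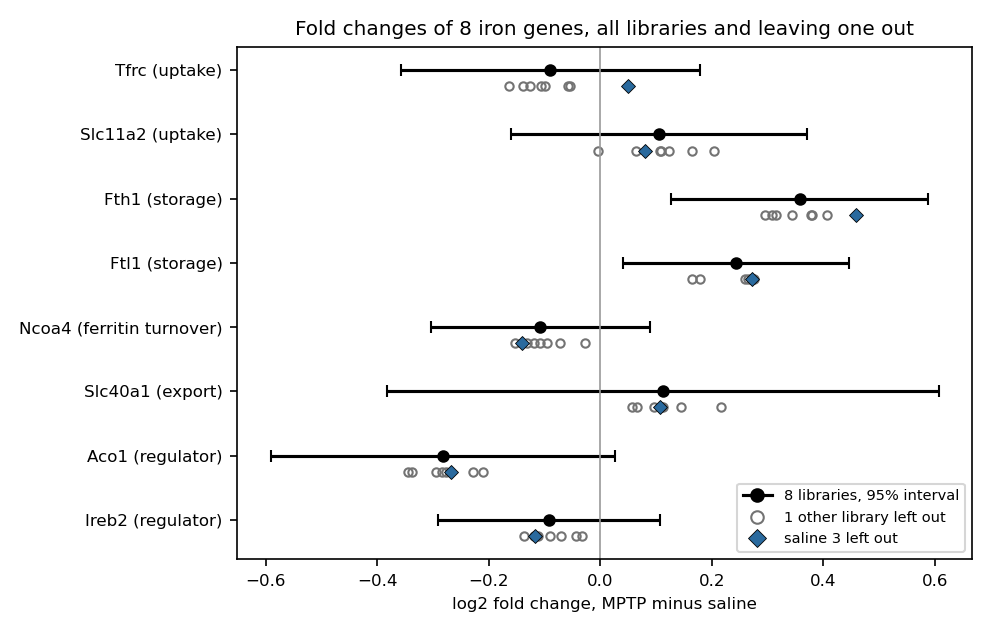
Log2 fold changes of the 8 genes, MPTP minus saline (x axis), are plotted as filled points with 95% intervals from the edgeR fit of all 8 libraries, open points for fits with 1 other library left out and diamonds for the fit without saline 3. The intervals of Fth1 and Ftl1 lie above 0, the other 6 include 0, and the Tfrc diamond at 0.049 lies on the other side of 0 from its 8-library value of -0.090.

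Ncoa4 encodes the receptor that delivers ferritin to autophagosomes, where stored iron is freed. Its levels were 75.0, 71.2, 84.2 and 77.4 CPM in MPTP and 80.3, 96.1, 77.2 and 78.1 CPM in saline. Saline 2 stood above the other 7 libraries, which lay between 71.2 and 84.2 CPM and overlapped. The log2 fold change was -0.11 (SE 0.093, 95% interval -0.30 to 0.088) with an adjusted edgeR p of 0.772. For Ncoa4, 39.8% of the 100-base windows also occur in a transcript of Gm6768, which has no entry in the counts.

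Tfrc encodes transferrin receptor 1, the entry point for transferrin-bound iron. It measured 28.7, 30.4, 25.6 and 26.0 CPM with MPTP and 28.7, 27.1, 37.5 and 24.5 CPM with saline. The groups overlapped throughout, and saline 3 was the highest of the 8. The means were 27.7 ± 2.28 and 29.5 ± 5.64 CPM (SD, n = 4 each), and the log2 fold change was -0.090 (SE 0.13, 95% interval -0.36 to 0.18). The edgeR adjusted p was 0.877. Without saline 3 it was 0.049, with an adjusted p of 0.879, so the sign of the Tfrc difference rested on that library.

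Slc11a2 encodes divalent metal transporter 1 (DMT1), which moves ferrous iron out of endosomes and across the cell surface. Its levels were 31.2, 31.3, 24.7 and 38.4 CPM in MPTP and 32.4, 26.6, 27.6 and 30.1 CPM in saline. MPTP replicates 3 and 4 were the lowest and the highest of the 8, and the saline libraries lay between them. The log2 fold change was 0.11 (SE 0.13, 95% interval -0.16 to 0.37). The edgeR adjusted p was 0.851, and without MPTP 4 the log2 fold change was -0.0041. Changes of up to 1.29-fold up or to 0.895 of the saline level lie inside the interval of the 8 libraries. The isoforms of Slc11a2 with and without an IRE are not separated by gene counts.

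Slc40a1 encodes ferroportin, the cellular iron exporter, and had the lowest level of the 8 genes. It measured 3.68, 3.63, 2.56 and 3.35 CPM with MPTP and 3.03, 3.26, 3.02 and 2.93 CPM with saline. In MPTP, 3 libraries lay above every saline library and replicate 3 lay below all of them. The log2 fold change was 0.11 (SE 0.23, 95% interval -0.38 to 0.61), with an edgeR adjusted p of 0.922. Its counts ran from 154 to 302 per library, for which counting error alone is up to 8.06% of the value, and its interval was the widest of the 8. That interval reaches 1.52-fold higher and 0.767 of the saline level.

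Aco1 encodes iron regulatory protein 1, which acts as cytosolic aconitase when it carries an iron-sulphur cluster. Its levels were 10.5, 8.36, 9.36 and 9.50 CPM in MPTP and 13.0, 9.93, 11.8 and 11.1 CPM in saline. Of the 4 MPTP libraries 3 lay below every saline library, and MPTP 1 lay above saline 2. The mean was 9.43 ± 0.875 CPM with MPTP and 11.5 ± 1.30 CPM with saline (SD, n = 4 each), a log2 difference of -0.28 (SE 0.15, 95% interval -0.59 to 0.027). The edgeR p was 0.0711 before adjustment and 0.606 after.

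Ireb2 encodes iron regulatory protein 2, which is degraded when iron is plentiful. It measured 61.2, 52.2, 57.9 and 60.5 CPM with MPTP and 64.0, 69.0, 58.5 and 55.5 CPM with saline. The groups overlapped, with MPTP 2 the lowest and saline 2 the highest. The log2 fold change was -0.092 (SE 0.094, 95% interval -0.29 to 0.11) with an adjusted edgeR p of 0.820.

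Levels can be set side by side between genes only per length, so CPM were divided by the length of the longest protein-coding transcript. On that scale Fth1 had 1008 ± 154 CPM per kb in saline (SD, n = 4) and ranked 29 of 15239 genes. Ftl1 followed with 172 ± 16.9 CPM per kb at rank 324, a level that includes reads shared with its copies. Ncoa4 had 20.4 ± 2.19, Ireb2 10.7 ± 1.04, Slc11a2 6.61 ± 0.589, Tfrc 6.02 ± 1.15, Aco1 2.99 ± 0.34 and Slc40a1 0.908 ± 0.0421 CPM per kb. Slc11a2 and Tfrc overlapped between libraries and could not be ordered, while the ranges of all other neighbours in this order were separate. Per length, the Fth1 entry was thus 5.86 times the Ftl1 entry in saline. This is not a ratio of heavy to light chain RNA. The Ftl2 entry, with 87.8% to 91.3% as many counts as Ftl1, was not added, and how shared reads were assigned is not known. The RNA of iron regulatory protein 2 stood above that of iron regulatory protein 1 in every saline library. With MPTP the ranks were 19 for Fth1 and 236 for Ftl1.

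A ratio of 2 genes within 1 library does not depend on the scaling between libraries. Tfrc counts per Fth1 count, a comparison of uptake with storage RNA, were 0.0216, 0.0264, 0.0237 and 0.0209 with MPTP and 0.0356, 0.0320, 0.0334 and 0.0253 with saline. In saline, 3 libraries lay above all MPTP libraries, and replicate 4 lay below MPTP 2. The difference in mean log2 ratio, MPTP minus saline, was -0.44, so the MPTP ratio was 0.737 of that in saline. The exact permutation test, two-sided over 70 arrangements, gave p = 0.0571, and 0.171 after Benjamini-Hochberg adjustment over the 3 ratios computed, where the smallest p the design allows is 0.0286.

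Counts of Fth1 per Ftl1 count were 5.79, 6.20, 5.87 and 6.57 with MPTP and 5.66, 4.94, 6.37 and 5.52 with saline. The groups overlapped, with saline 3 second only to MPTP 4 (log2 difference 0.12, exact permutation p = 0.2, adjusted 0.2). Without saline 3 the difference was 0.19 (exact permutation p = 0.0286, the smallest possible, adjusted 0.0857), and without saline 2 it was 0.063. Aco1 counts per Ireb2 count were 0.172, 0.160, 0.162 and 0.157 with MPTP and 0.204, 0.144, 0.202 and 0.2 with saline. Saline 2 was the lowest of all 8 and the other saline libraries the highest (log2 difference -0.19, exact permutation p = 0.143, adjusted 0.2). Without saline 2 it was -0.31 (exact permutation p = 0.0286, adjusted 0.0857).

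**Figure D3:**
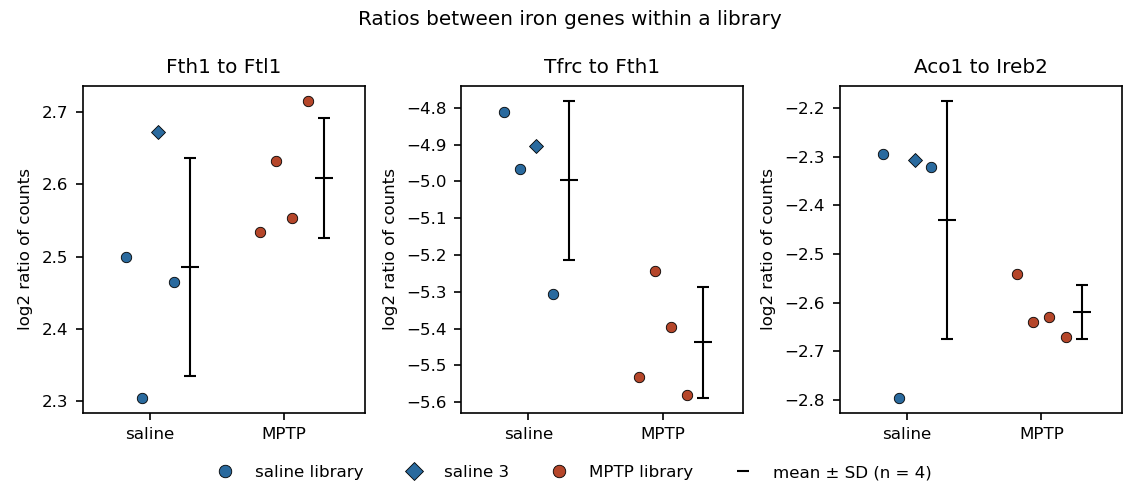
The 3 panels plot the log2 ratio of counts of 2 iron genes within each library (y axis) for MPTP and saline, with the group mean and an error bar of 1 SD and a diamond for saline 3. The ratio of Tfrc to Fth1 is lower in MPTP except that saline 4 overlaps, the ratio of Fth1 to Ftl1 overlaps, and 1 saline library stands apart in the ratio of Aco1 to Ireb2.

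Ferritin, transferrin receptor and ferroportin are expressed by glia as well as by neurons, so the markers of other cell types are given beside these values. All 13 astrocyte markers had fold changes above 0 (median log2 0.28), with summed levels of 444 to 506 CPM in MPTP, 386 to 399 in 3 saline libraries and 502 in saline 3. Of 13 oligodendrocyte markers 12 lay above 0 (median 0.22), with sums of 1224 to 1402 CPM in MPTP, 843 to 1017 in 3 saline libraries and 1786 in saline 3. For microglia 10 of 15 markers lay above 0 (median 0.25; 64.5 to 76.5 CPM in MPTP and 55.8 to 70.2 in saline). Of 12 endothelial and mural markers 4 lay above 0 (median -0.15; 13.8 to 22.1 and 12.5 to 28.4 CPM). The 3 tested erythroid markers lay above 0 (median 0.55), with overlapping sums of 159 to 345 CPM in MPTP and 113 to 231 in saline. Only 3 of 19 dopaminergic markers lay above 0 (median -0.16), with sums of 10049 to 11944 CPM in MPTP, 13887 to 14888 in 3 saline libraries and 8990 in saline 3. Without saline 3 the dopaminergic sums of the groups did not overlap, with MPTP below. Markers of other neurons, 3 per type, are not part of the score, and saline 3 had the highest sum of the 8 libraries in each type. GABAergic sums were 193 to 313 CPM in MPTP, 205 to 225 in 3 saline libraries and 346 in saline 3. Glutamatergic sums were 71.9 to 94.0, 58.9 to 79.9 and 106 CPM in the same order, and serotonergic sums 24.7 to 41.3, 13.4 to 30.0 and 46.6 CPM. None of these markers passed the threshold and none was at 0 in every library. Saline 3, the highest saline library in Fth1 and Tfrc, was also the highest in the non-neuronal score. When the score was a covariate over all 8 libraries, the log2 fold changes were 0.28 for Fth1, 0.24 for Ftl1 and -0.24 for Tfrc (edgeR adjusted p of 0.701, 0.752 and 0.755).

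**Figure D4:**
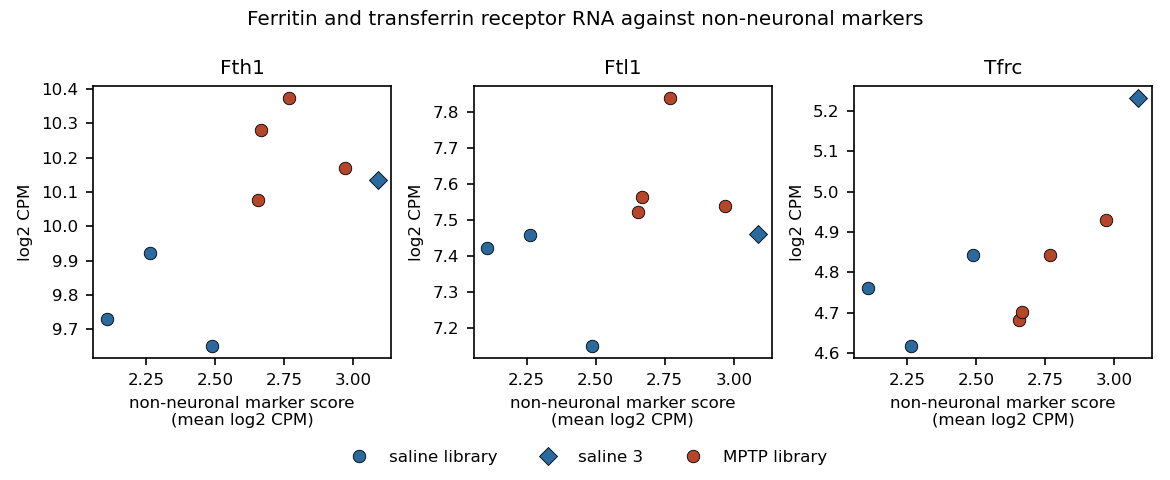
The log2 CPM of Fth1, Ftl1 and Tfrc (y axes) is plotted against the non-neuronal marker score of each library (x axis, mean log2 CPM), with a diamond for saline 3. The 3 other saline libraries lie at scores of 2.11 to 2.49, below all MPTP libraries at 2.65 to 2.97, and saline 3 lies at 3.09.

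The wider iron pathway was described through 8 lists that hold 124 further genes, of which 119 were tested. None passed the threshold in edgeR or DESeq2, 52 fold changes lay above 0 and 67 below, and the median log2 fold change was -0.034. At an unadjusted p under 0.05 edgeR had 4 higher and 3 lower of the 119, against 8.78% of all genes tested. The groups did not overlap for 4 of the 119, against 4.19% of all genes, with Pcbp4 and Flvcr1 higher and Ciao1 and Hmox2 lower.

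In the transferrin cycle and entry list 6 of 12 tested genes lay above 0 and 6 below. Mcoln1, the endolysosomal channel that releases iron, had 28.5 CPM with MPTP and 22.2 with saline (log2 fold change 0.36, edgeR adjusted p 0.496). Its highest library was MPTP 2 at 37.7 CPM, and without it the log2 fold change was 0.19. Steap1, of the metalloreductase family, had the largest fold change of the named genes (-2.85, SE 0.97, adjusted p 0.431) on 1 to 127 counts per library, and saline 1 was the highest at 1.94 CPM. Without saline 1 Steap1 was at -1.67. Trf, the transferrin that carries iron to the receptor and is made in brain mainly by oligodendrocytes, was 1.57-fold higher in MPTP without saline 3 (adjusted p 0.0135). With all 8 libraries it did not pass (log2 0.20, adjusted p 0.890), and saline 3 held 92.4 CPM, above the 35.8 to 40.3 of the other saline libraries and the 47.8 to 70 of MPTP. Without saline 3 and with the score added as a covariate it was 0.67 with an edgeR adjusted p of 0.261. Score and treatment can hardly be told apart in that fit. Trf was named after its values were seen.

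Among iron chaperones and genes of ferritin turnover, 2 of 6 tested lay above 0. Pcbp4, of the poly(rC)-binding family whose members deliver iron to ferritin, had 65.8 ± 4.64 CPM with MPTP and 55.7 ± 5.03 with saline (log2 0.24, adjusted edgeR p 0.487). Tax1bp1, an autophagy receptor that takes part in ferritin turnover, had 110 and 127 CPM (log2 -0.21, adjusted p 0.601). Of the export partners and ferroxidases 4 of 7 lay above 0. Flvcr1, deposited under the older symbol Mfsd7b and known as a haem exporter, had 15.9 ± 1.47 and 12.5 ± 0.771 CPM, a log2 difference of 0.34 with an adjusted p of 0.472. Flvcr2 had a log2 fold change of -0.94 (adjusted p 0.701) on 9 to 111 counts, with saline 3 the highest at 1.76 CPM, and without saline 3 it was -0.38.

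Iron sensing and hepcidin genes were evenly divided, 9 above and 9 below 0 (median log2 -0.014). Epas1, the hypoxia-inducible factor HIF-2α, had 44.2 and 36.6 CPM (log2 0.27, adjusted edgeR p 0.607), and without saline 3 it was 0.47 with an adjusted p of 0.0311. Without saline 3 and with the score added Epas1 did not pass (0.64, edgeR adjusted p 0.233), with the same limit as for Trf. Skp1a, part of the ubiquitin ligase that degrades iron regulatory protein 2, had 448 and 510 CPM (log2 -0.19, adjusted p 0.661). The hepcidin gene Hamp, the hormone that removes ferroportin from the cell surface, had 0 to 2 counts and was not tested. Mitochondrial ferritin (Ftmt) had 0 counts in every library.

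For mitochondrial iron and iron-sulphur cluster assembly, 14 of 30 genes lay above 0 (median log2 -0.014). The mitochondrial iron importer Slc25a28 (mitoferrin 2) had 21.9 and 17.1 CPM (log2 0.36, adjusted edgeR p 0.475). Ciao1, which acts in cytosolic cluster assembly, had 34.7 and 41.2 CPM (log2 -0.25, adjusted p 0.488). Haem synthesis and breakdown genes numbered 10 above and 10 below 0 (median 0.017). Slc48a1, a haem transporter, had 106 and 93.4 CPM (log2 0.18, adjusted p 0.601), and the haem oxygenase Hmox2 had 89.5 and 97.7 CPM (log2 -0.13, adjusted p 0.654). In the list named for lipid peroxide defence and NRF2, 7 of 22 tested lay above 0 (median -0.072). That list also holds NRF2 itself, its inhibitor, and genes that promote lipid peroxidation, such as Acsl4. The count therefore does not describe defence genes or NRF2 targets alone. Srxn1, which restores oxidised peroxiredoxins, had 130 and 120 CPM (log2 0.12, adjusted p 0.694), and Acsl4, which makes the polyunsaturated lipids that peroxidise in ferroptosis, had 45.6 and 49.9 CPM (log2 -0.13, adjusted p 0.707).

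**Figure D5:**
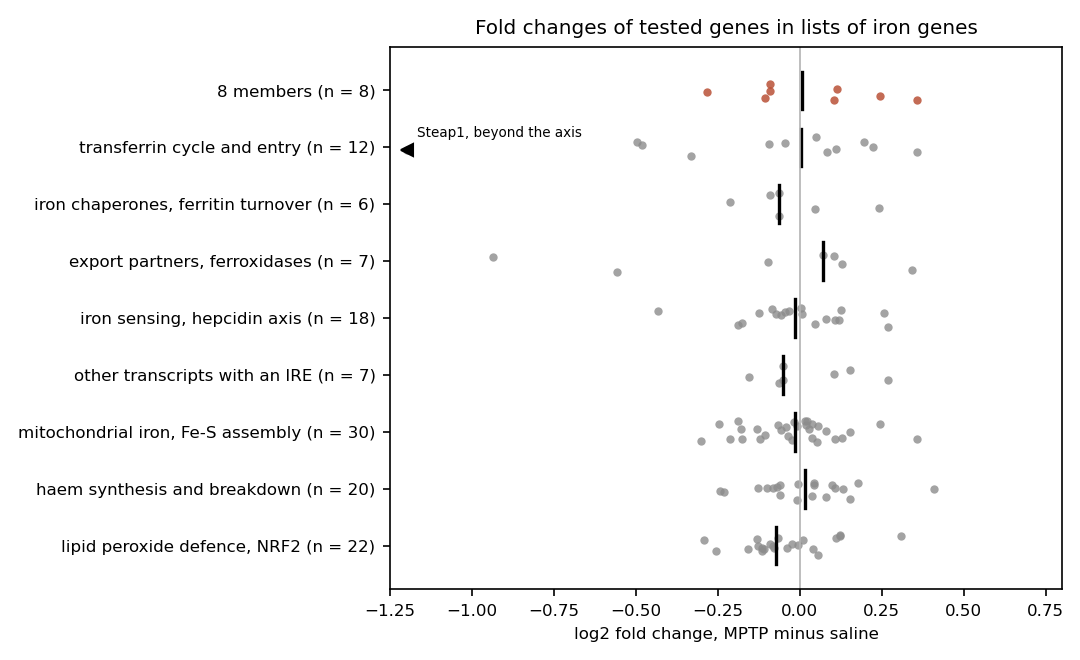
Points are the log2 fold changes of tested genes, MPTP minus saline (x axis), 1 line of points per iron list with the number tested in brackets. The points of the 8 members and of the 8 other lists lie on both sides of 0, and none passed the threshold with all 8 libraries.

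The 16 genes with a matched IRE were all tested, and none passed the threshold in edgeR. Of the 6 with the element in the 5′ UTR 5 lay above 0 (median log2 0.20). Of the 10 with the element in the 3′ UTR 3 lay above 0 (median -0.052). The 5′ UTR genes include Fth1, Ftl1 and Slc40a1, with Alas2, the erythroid haem synthesis enzyme, at 0.15 and Ppp1r1b at 0.49. Pfn2, on the list of other IRE transcripts but without a match here, had 303 and 337 CPM (log2 -0.16, adjusted edgeR p 0.640).

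As a description of shared patterns, each member was compared with 9774 genes (9775 for Slc40a1) of mean log2 CPM of at least 3 over the 8 libraries, which share depth and cell makeup. The log2 CPM of Fth1 was most like that of Slc22a23 (Pearson r 0.980) and Scmh1 (0.975), and that of Ftl1 most like Ftl2 (0.997) and Lin28b (0.977). For Tfrc the closest were Epb4.1 (0.945) and Vps13c (0.935), and for Ncoa4 they were Shc4 (0.991) and Eid1 (0.989). Closest to Aco1 were Ddx6 (0.912) and Mtx3 (0.903). Slc40a1 was closest to Hltf (0.966) and Fam122a (0.950), Slc11a2 to Adnp2 (0.965) and Pcnxl3 (0.960), and Ireb2 to Gosr1 (0.958) and Aqr (0.956). These are the highest of 9774 or 9775 correlations per member over only 8 libraries. How high unrelated genes would reach was not tested, so neither a match nor the order of these values shows a link.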

How the data were processed

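The authors deposited raw counts of reads per gene for 21761 genes in 8 libraries, with Entrez identifiers. They used TopHat2 2.0.8 with mm10, per the submitters' processing notes. How reads were counted (tool, annotation, strand) is not given in the sources used here. The cDNA was made by whole-transcript amplification of a few nanograms of RNA and the library kit keeps no strand, per the labels' protocols. Reads from overlapping genes on opposite strands therefore cannot be told apart. Exons of Ftl1 overlap an opposite-strand gene and a same-strand microRNA gene, together over 34.6% of their length. Those of Slc11a2 overlap an opposite-strand gene over 6.33%. The protocol covers RNA of the substantia nigra pars compacta and ventral tegmental area, together or apart. The name of the deposited counts holds SN, and the labels of the libraries do not give the region. Amplified reads carry no molecular identifiers, so counting errors cover counting only. The 27 symbols stored as dates were restored by identifier. Of 222 list genes, 219 matched.

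Counts were tested with edgeR 4.0.16 in R 4.3.3: TMM scaling, filterByExpr with the group (15999 genes), robust quasi-likelihood F-test, with a threshold of 0.05 on Benjamini-Hochberg values over these genes. The SE is |log2 fold change| over the root of the F statistic. Ratios used counts plus 0.5 and an exact permutation test run in Python 3.11.15. The gene test was tested on simulated data. No pair of replicates agreed within sampling noise. Member genes lie on GRCm38, all protein-coding in GENCODE vM21: Fth1 chromosome 19, 9980598 to 9985098; Ftl1 chromosome 7, 45457944 to 45459884; Tfrc chromosome 16, 32608920 to 32632794; Slc40a1 chromosome 1, 45908068 to 45926523. Slc11a2 lies on chromosome 15, 100387898 to 100425072, Aco1 on chromosome 4, 40143081 to 40198338, Ireb2 on chromosome 9, 54863789 to 54912530, and Ncoa4 on chromosome 14, 32159865 to 32179855.

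Members and lists were chosen with earlier results of these data known. The genes named are the 8 members, up to 2 genes of smallest p per list, the 2 closest in pattern to each member, and Th and Malat1. Trf, and genes named in counts of 5 or fewer or for their IRE, were named after their values were seen. The value of 1 further gene is not reported here. Alternatives were DESeq2 1.42.0 and its size factors, upper quartile scaling, other filters, limma 3.58.1 voom with sample weights, leaving out each library, a covariate for non-neuronal markers, and a block for the replicate number.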

Additional observations from a re-analysis of the deposited data

Results flagged for a closer look

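In groups of 4 libraries, the gap of the highest or lowest library to its nearest neighbour was compared with the range of the group (Dixon's test). Of 22 groups tested 4 had a library that stood apart, where chance gives about 5% of groups. Ftl1 in MPTP 1 was 229 CPM, and the other MPTP libraries were at 184 to 189 CPM. In saline 1 Ftl1 was 142 CPM, and the other saline libraries were at 172 to 176 CPM. Ncoa4 in saline 2 was 96.1 CPM against 77.2 to 80.3 CPM in the others. The log2 ratio of Aco1 to Ireb2 in saline 2 was -2.80, against -2.32 to -2.29 in the others.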

How the results depend on the processing

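Over 17 alternative settings, 128 of 135 fold changes of a member kept their sign and their side of the threshold, 6 changed sign and 1 newly passed. Fth1 passed without saline 3 (log2 fold change 0.46, edgeR adjusted p 0.0218), and its adjusted p over all alternatives ran from 0.0218 to 0.791. Without saline 3 Tfrc was 0.049, and without MPTP 4 Slc11a2 was -0.0041. A setting chosen after seeing the data left out saline 3 and held the non-neuronal score as a covariate. In it Ireb2 was 0.062, Ncoa4 0.16, Slc11a2 -0.11 and Slc40a1 -0.054, and 19 genes were called lower. Score and treatment can hardly be told apart in that setting. Leaving out 1 library in turn, log2 fold changes ran from 0.30 to 0.46 for Fth1, 0.16 to 0.28 for Ftl1, -0.16 to 0.049 for Tfrc, -0.0041 to 0.20 for Slc11a2, 0.057 to 0.22 for Slc40a1, -0.15 to -0.028 for Ncoa4, -0.34 to -0.21 for Aco1 and -0.14 to -0.033 for Ireb2. Differences in log2 ratio ran from 0.063 to 0.19 for Fth1 to Ftl1, -0.54 to -0.38 for Tfrc to Fth1 and -0.31 to -0.15 for Aco1 to Ireb2. Of 15 other iron genes named, 10 moved by over 1.5 times when 1 library was left out, and Mcoln1 (-0.11), Tax1bp1 (0.13) and Srxn1 (-0.048) changed sign with the covariate and no saline 3. The counts of genes called ran from 8 to 138 higher and from 0 to 159 lower, the highest values being those without saline 3. Counts of called genes in the members and in the sensing, other IRE and transferrin lists ran from 0 to 1, the 1 being Fth1, Epas1, Epas1 and Trf without saline 3. DESeq2 called 25 genes higher and 28 lower, none of them a member, and 7 were called higher at a mean CPM of at least 5, where Slc40a1 was not tested. The cause of these shifts was not tested. No pairing by replicate number was seen, which does not exclude it. The correlation of deviations was -0.12 to 0.039 for 4 same-numbered pairs and -0.072 to 0.088 for the other pairs. With a replicate block Fth1 was 0.37 (adjusted p 0.661), 10 genes were called higher and 4 lower, and an exact sign-flip test of the Tfrc to Fth1 ratio gave p = 0.125. The 95% intervals are not adjusted for the number of genes tested.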
